A study of Hermetia illucens with 24 samples.

Results

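The day between 6 and 24 h on feed with aflatoxin B1 (AFB1) was followed in *Hermetia illucens* larvae. This insect, the black soldier fly, is farmed on organic residues as a source of protein. The comparison set 4 AFB1 24 h libraries against 4 AFB1 6 h libraries, 8 of the 24 libraries of the series, and its members were taken by diet and time as the labels give them. The larvae were 5 days old when the feeding began, were kept whole and received chickenfeed to which AFB1 had been added. For reference, the same day was followed in 4 control 24 h and 4 control 6 h libraries from larvae of the same age on the same feed without AFB1. Each library held the RNA of 2 pooled larvae, so it averages over tissues and over both animals. The labels name no strain, no AFB1 dose and no rearing containers, and p-values therefore measure the spread between pools, which may be partly technical.

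AFB1 is a toxin of *Aspergillus* moulds that becomes harmful when oxidising enzymes of the animal turn it into a form that binds DNA and protein. Black soldier fly larvae are known for surviving on feed that carries it. Among the genes that the table names by symbol are those of the mitochondrial genome, which codes for the core subunits of the respiratory chain and of ATP synthase and is read as long precursor RNAs that are then cut into single messengers. Nearly all other genes carry only a LOC number in the sources used here, without a product name, so no pathway or tissue marker could be looked up and the label "larvae" was not checked against markers.

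Library totals ran from 8143905 to 10745745 counts at 24 h and from 6826454 to 27136702 counts at 6 h on AFB1 feed. LOC119646963, a protein-coding gene, took so much of some libraries that only 1711314 to 6811421 counts were left for all other genes at 24 h, against 4526378 to 24355059 at 6 h. Of the 8 libraries, 3 stood nearer to another group than to their own when log2 levels were correlated with group means that left the library itself out. AFB1 6 h replicate 2 correlated at 0.957 with the control 24 h mean and at 0.896 with its own group. AFB1 6 h replicate 3 correlated at 0.960 with the AFB1 24 h mean and at 0.875 with its own group, and AFB1 24 h replicate 1 correlated at 0.962 with the AFB1 6 h mean and at 0.931 with its own. Control 24 h replicate 4 was likewise nearer to AFB1 24 h larvae (0.854) than to control 24 h larvae (0.833), and control 24 h replicate 1 nearer to AFB1 6 h larvae (0.933) than to its own group (0.924). Control 6 h replicate 2 was nearer to control 72 h larvae (0.953) than to its own group (0.898). The 4 control 72 h libraries, which enter the shared estimate of spread, each correlated at 0.991 or more with their own group.

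Before any other gene, LOC119646963 sets how these libraries are made up. It took 27.4%, 42.8%, 74.2% and 81.1% of all counts in AFB1 24 h replicates 1 to 4, against 10.3%, 7.78%, 33.7% and 23.9% in AFB1 6 h replicates 1 to 4. Replicates 3 and 4 at 24 h were the highest, and the groups overlapped, since 6 h replicate 3 lay above 24 h replicate 1, but in all 4 same-numbered pairs the 24 h library was the higher one. The means were 56.4% ± 25.5 at 24 h and 18.9% ± 12.1 at 6 h (SD, n = 4 each), a difference of 37.5 percentage points that missed the threshold in a two-sided exact permutation test over 70 divisions of the 8 libraries (p = 0.0571; the smallest p that these allow is 0.0286). Within the 4 pairs the exact permutation p was 0.125, the smallest that 4 pairs allow. At 72 h on AFB1 feed the share was 27.7%, 8.94%, 9.94% and 12.9%, of which the last 3 were below every 24 h library. On control feed it was 7.12%, 7.43%, 7.92% and 36.8% at 24 h, against 9.01%, 14.3%, 8.35% and 13.9% at 6 h, with replicate 4 alone above the 6 h libraries (exact permutation p = 1).

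As a gene in the test across all genes, LOC119646963 had a log2 fold change of 3.13 ± 0.92 (SE; edgeR's quasi-likelihood test, adjusted p = 0.0532), and DESeq2 called it (3.23, adjusted p = 0.00491). The value was 1.06 (adjusted p = 0.628 in edgeR) without AFB1 24 h replicates 3 and 4, and 4.10 (adjusted p = 0.0106 in edgeR) without AFB1 6 h replicate 3. The change over the day differed between AFB1 and control feed by 2.09 ± 1.22 on the log2 scale, which was not called (adjusted p = 0.289 in edgeR). Since a gene of this size sets what is left for the others, the gene tests that follow were also run with LOC119646963 removed before library sizes and scaling factors were set.

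**Figure D1:**
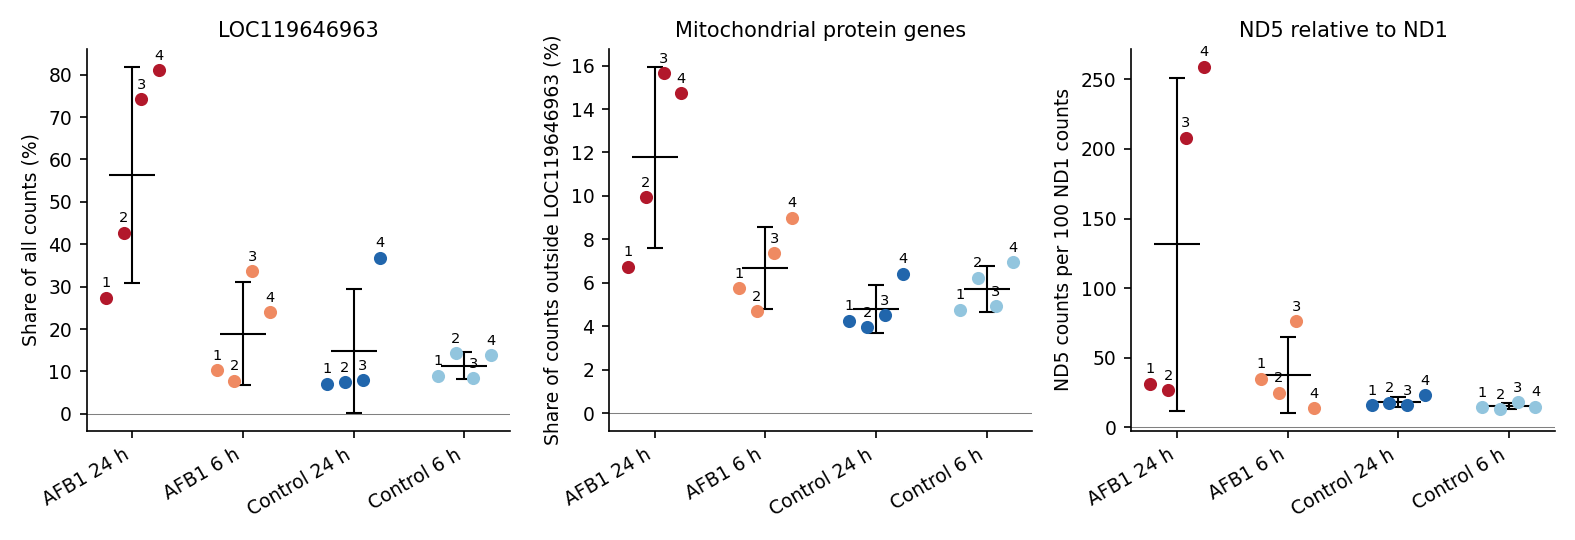
Share of LOC119646963 in all counts (left, %), share of the 12 tested mitochondrial protein genes in the counts outside it (middle, %) and counts of *ND5* per 100 counts of *ND1* (right), with 1 point per library numbered by replicate and bars at the mean ± SD of 4 libraries. On AFB1 feed the 24 h means are 56.4% and 11.8% in the first panels, against 18.9% and 6.70% at 6 h, and the points of the 2 times overlap in all 3 panels.

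The mitochondrial protein genes are described next as a share of the remaining counts. Outside LOC119646963 this share was 6.74%, 9.94%, 15.7% and 14.7% in AFB1 24 h libraries, against 5.75%, 4.69%, 7.37% and 8.99% in AFB1 6 h libraries. The 24 h libraries lay higher except for replicate 1, which fell within the range of 6 h. The means were 11.8% ± 4.18 and 6.70% ± 1.88 (SD, n = 4 each; exact permutation p = 0.0857, two-sided), so the difference did not pass. The 24 h library was higher in all 4 same-numbered pairs (paired exact permutation p = 0.125, the smallest possible). Taken over all counts with LOC119646963 included, the direction turned: the share was 4.35% ± 1.25 at 24 h and 5.30% ± 1.08 at 6 h (exact permutation p = 0.343). On control feed the share outside LOC119646963 was 4.79% ± 1.11 at 24 h and 5.72% ± 1.05 at 6 h (SD, n = 4 each, exact permutation p = 0.2). Over all counts it was 3.96% ± 0.21 at 24 h and 5.05% ± 0.77 at 6 h on control feed. There the times did not overlap (exact permutation p = 0.0286, the smallest possible). In whole larvae, fewer cells of a type and less RNA per cell cannot be told apart, here and in every result below.

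Of the 13 mitochondrial protein genes in the table, *ND2* was at 0 in all libraries and 12 were tested. In edgeR 0 of the 12 passed an adjusted p of 0.05, the threshold for a call, against a background of 4.04% of all genes. An unadjusted p under 0.05 was reached by 6, all higher at 24 h, beside 10.8% of all genes that were higher by that measure and 19.2% that were lower. DESeq2 called 3 of them higher (*ND4*, *ND5* and *COX3*) and limma voom none. Their median log2 fold change was 1.35, and 1.36 with LOC119646963 removed, beside a median of -0.19 over all genes tested. Without AFB1 24 h replicates 3 and 4 the mitochondrial median was 0.50.

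The subunits of complex I, which takes electrons from NADH, gave unequal values. *ND5* had 3201, 3835, 38978 and 32094 CPM (counts scaled to a common library size) in AFB1 24 h replicates 1 to 4, against 3273, 1388, 9223 and 1136 CPM in AFB1 6 h replicates 1 to 4. Replicates 3 and 4 at 24 h stood far above all others, while replicates 1 and 2 lay inside the range of 6 h. The log2 fold change of *ND5* was 2.38 ± 0.74 (SE; adjusted p = 0.0573 in edgeR) and was -0.044 without those 2 libraries. *ND4* gave 1.82 ± 0.72 (adjusted p = 0.102), *ND6* 1.30 ± 0.53 (0.111), *ND1* 0.65 ± 0.35 (0.209) and *ND4L* 0.41 ± 0.31 (0.386) in the same edgeR test. *ND3*, at -0.44 ± 0.35 (adjusted p = 0.398 in edgeR), was the only one of the 12 with a negative value, and it was 0.021 without AFB1 24 h replicates 3 and 4.

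Because CPM moves with scaling, the subunits were also set against *ND1* within each library, a choice made after values were seen. For every 100 counts of *ND1* there were 31.3, 26.7, 208 and 259 counts of *ND5* in AFB1 24 h libraries, against 34.7, 24.7, 76.3 and 13.8 in AFB1 6 h libraries. AFB1 72 h libraries held 18.9 to 21.7, control 24 h libraries 15.7 to 23.1 and control 6 h libraries 12.8 to 18.1. Replicates 3 and 4 at 24 h and replicate 3 at 6 h on AFB1 feed were thus above all the others of these 20 libraries. For *ND3* the 24 h libraries were the lower ones, with 87.2, 89.0, 31.5 and 39.0 counts per 100 of *ND1* at 24 h and 124, 102, 138 and 121 at 6 h on AFB1 feed. The 2 times did not overlap in this ratio. Control 24 h replicate 4 was also low, at 48.5, while replicates 1 to 3 of its group held 101 to 107. Control 6 h libraries held 102 to 123 and AFB1 72 h libraries 99.5 to 124. Counts of *COX3* per 100 of *ND1* did not overlap either, with 44.0 to 82.5 at 24 h and 25.0 to 41.3 at 6 h on AFB1 feed. How often such ratios separate the times over all genes was not counted. Such ratios compare counts of genes of different length and say only that their balance was unequal between libraries.

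In the rest of the chain, *COX3*, a subunit of cytochrome c oxidase, had 4511, 7262, 15447 and 7889 CPM at 24 h, against 2361, 1456, 4190 and 3409 CPM at 6 h on AFB1 feed. Every 24 h library was above every 6 h library, yet the change of 1.62 ± 0.50 log2 (SE) was not called (adjusted p = 0.0573 in edgeR). The catalytic subunit *COX1* gave 1.41 ± 0.64 (adjusted p = 0.143) and *COX2*, which receives electrons from cytochrome c, gave 0.10 ± 0.32 (adjusted p = 0.861), with overlapping libraries in both; the sign of *COX2* was negative in 7 of 23 alternative settings. *CYTB*, the cytochrome b of complex III, had 1301, 2165, 9441 and 7406 CPM at 24 h and 311, 132, 3845 and 583 CPM at 6 h. Here 6 h replicate 3 was again apart from its group, and the change was 2.06 ± 1.09 (adjusted p = 0.205 in edgeR). The ATP synthase subunits *ATP6* and *ATP8* gave 1.74 ± 1.05 (adjusted p = 0.270) and 0.72 ± 0.34 (adjusted p = 0.158). The test of the difference between feeds called 0 of the 12 in edgeR, with 2 at an unadjusted p under 0.05. Over all genes it called 1.29%, with 2481 of 10165 at an unadjusted p under 0.05.

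**Figure D2:**
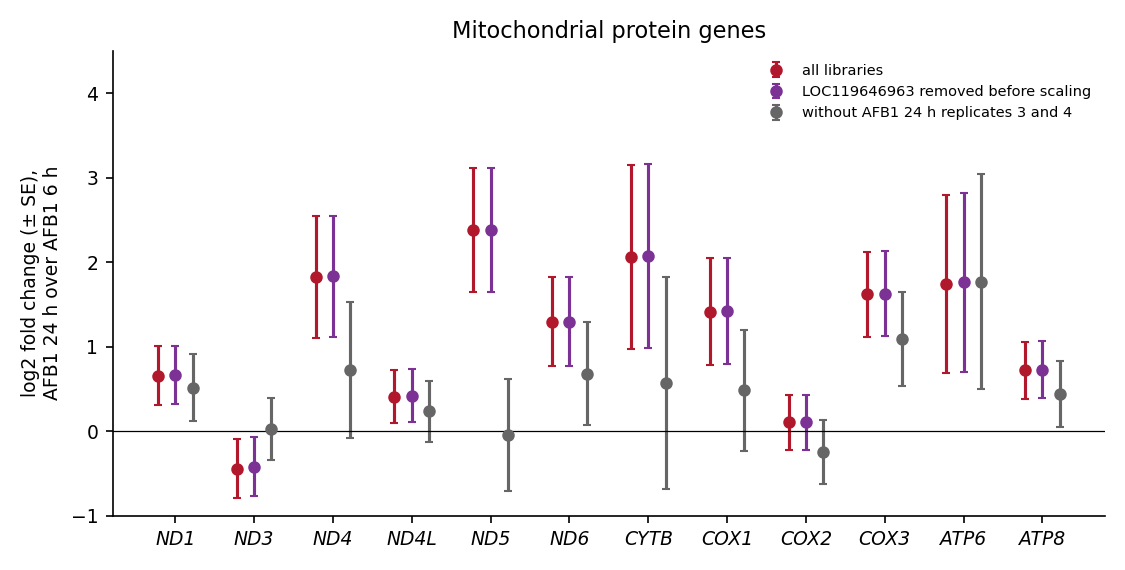
Log2 fold change of AFB1 24 h over AFB1 6 h (vertical axis, with SE bars) for the 12 tested mitochondrial protein genes, with all libraries, with LOC119646963 removed before scaling, and without AFB1 24 h replicates 3 and 4. Removing LOC119646963 leaves the values nearly where they were, with medians of 1.36 and 1.35, while leaving out the 2 libraries takes *ND5* to -0.044, against 2.38 with all libraries.

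Across all genes, 411 of the 10165 tested (4.04%) were called in edgeR at an adjusted p under 0.05, 129 higher (1.27%) and 282 lower (2.77%) at 24 h than at 6 h on AFB1 feed. With LOC119646963 removed before scaling, 347 of 10176 genes (3.41%) were called, 124 higher (1.22%) and 223 lower (2.19%). All 347 were among the 411, and the 64 genes lost had adjusted p-values of at most 0.0503. Estimated changes had to be large to pass at this spread between libraries, so the size of the calls partly follows from the threshold. The smallest called changes were 0.76 log2 among the higher genes and -0.94 among the lower ones. The median was 1.51 log2 among the higher genes and -2.24 among the lower ones, and 119 of 129 and 280 of 282 were at least 2-fold. How many genes that were not called changed 2-fold was not counted. The median over all genes tested was -0.19, and -0.17 with LOC119646963 removed.

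These calls stood at the edge of the threshold. Their adjusted p-values lay between 0.0465 and 0.0499, another 491 genes lay between 0.05 and 0.06, and 1874 genes (651 higher, 1223 lower) were under 0.1. At an unadjusted p under 0.05 there were 3052 genes (30%), 1096 higher and 1956 lower. A fit with the replicate number as a block called 0 genes at the same threshold (lowest adjusted p = 0.0757), limma voom called 0 and DESeq2 called 1764, of which 410 were among the 411. The count was 0 without AFB1 24 h replicates 3 and 4, 2905 without AFB1 6 h replicate 3 and 1534 without control 24 h replicate 4, and leaving out 1 AFB1 library at a time gave 0 or 1 call in 6 of 8 cases. The direction of all 411 genes stayed as it was when any single AFB1 library was left out. The genes were picked on these same libraries, so a turned sign was unlikely and the kept direction is no separate support.

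**Figure D3:**
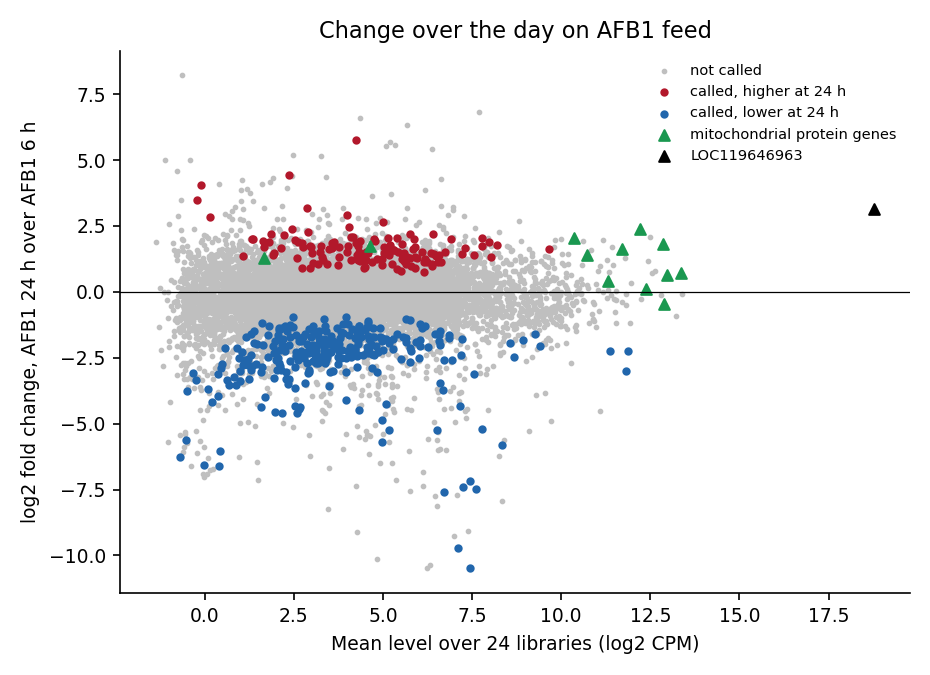
Log2 fold change of AFB1 24 h over AFB1 6 h (vertical axis) against mean log2 CPM over all 24 libraries (horizontal axis), with 1 point per tested gene. The 129 genes called higher and 282 called lower are coloured, with medians of 1.51 and -2.24. Estimated changes had to be large to pass the threshold.

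By mean level, from the weakest to the strongest genes, the share called lower was 2.51%, 3.43%, 2.50% and 2.25%. The share called higher was 0.58%, 0.92%, 2.08% and 1.44%, so the higher calls were the scarcer ones among weakly expressed genes. Under a mean log2 CPM of 2, 12 genes were higher and 52 lower of 2075 tested, and between 2 and 4 the counts were 32 and 119 of 3473. Between 4 and 6 they were nearly even, 60 higher and 72 lower of 2881, and at 6 and over they were 25 and 39 of 1736. The number of genes with at least 1 count, after every library was thinned to 1711314 counts outside LOC119646963, was 9811, 9810, 9384 and 9487 at 24 h, against 9945, 10255, 9536 and 10171 at 6 h on AFB1 feed. The groups overlapped through 6 h replicate 3, and the means of 9623 ± 221 and 9977 ± 322 (SD, n = 4 each) did not pass the test (exact permutation p = 0.114). Without 6 h replicate 3 the difference was -501 genes (exact permutation p = 0.0286, the smallest possible), and 24 h was lower in all 4 same-numbered pairs (paired exact permutation p = 0.125, the smallest possible). Control larvae had 10128 ± 130 at 24 h and 10450.5 ± 87.8 at 6 h (exact permutation p = 0.0286).

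Of 545 genes (5.36%) whose AFB1 24 h and 6 h libraries did not overlap, 149 were called, 44 higher and 105 lower. Among these with a mean log2 CPM of at least 1, the 2 largest changes in each direction are given. LOC119657440 had 13.5, 10.6, 12.9 and 25.0 CPM at 24 h, against 1.34, 0.39, 3.58 and 2.18 CPM at 6 h. All 4 libraries at 24 h were above those at 6 h, replicate 4 the most, and the gene rose by 3.17 ± 0.88 log2 (SE; adjusted p = 0.0492 in edgeR). LOC119655844 had 37.4, 51.5, 139 and 133 CPM at 24 h, against 15.3, 13.7, 31.5 and 26.7 CPM at 6 h. It rose by 2.05 ± 0.57 (adjusted p = 0.0492 in edgeR), with replicates 3 and 4 above replicates 1 and 2 at both times. Control larvae had 1.44 to 6.47 CPM of LOC119657440 at 24 h and 0.60 to 15.3 CPM at 6 h, and 10.7 to 39.9 CPM of LOC119655844 at 24 h and 11.1 to 31.6 CPM at 6 h, with overlap between times in both.

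At the other end, LOC119652755 was nearly lost at 24 h. It had 0.12, 0.38, 0 and 0 CPM at 24 h (4 counts in all), against 7.63, 20.1, 0.48 and 0.84 CPM at 6 h (807 counts in all), and it fell by 5.24 ± 1.34 log2 (SE; adjusted p = 0.0492 in edgeR). LOC119648143 had 0.24, 0.51, 0 and 0 CPM at 24 h (6 counts in all), against 4.22, 12.1, 0.95 and 7.46 CPM at 6 h (560 counts in all). It fell by 4.45 ± 0.89 (adjusted p = 0.0492 in edgeR). In both genes the 2 libraries at 0 were replicates 3 and 4, which also had the fewest counts outside LOC119646963, and replicate 3 was the lowest at 6 h. The gap between times rested on very few counts in both. For LOC119652755 the nearest libraries held 3 counts (AFB1 24 h replicate 2) and 2 counts (AFB1 6 h replicate 3). For LOC119648143 the same 2 libraries held 4 counts each, so their order in CPM came from scaling. Control larvae had 24.8 to 240 CPM of LOC119652755 at 24 h and 9.52 to 262 CPM at 6 h, above every AFB1 24 h library, and 0.63 to 11.6 CPM of LOC119648143 at 24 h and 6.54 to 14.5 CPM at 6 h. For these 4 genes the change over the day was not called as different between feeds (adjusted p of 0.0725 to 0.130 in edgeR). Their adjusted p on AFB1 feed was 0.0497 with LOC119646963 removed and 0.0757 with the replicate block, both in edgeR.

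**Figure D4:**
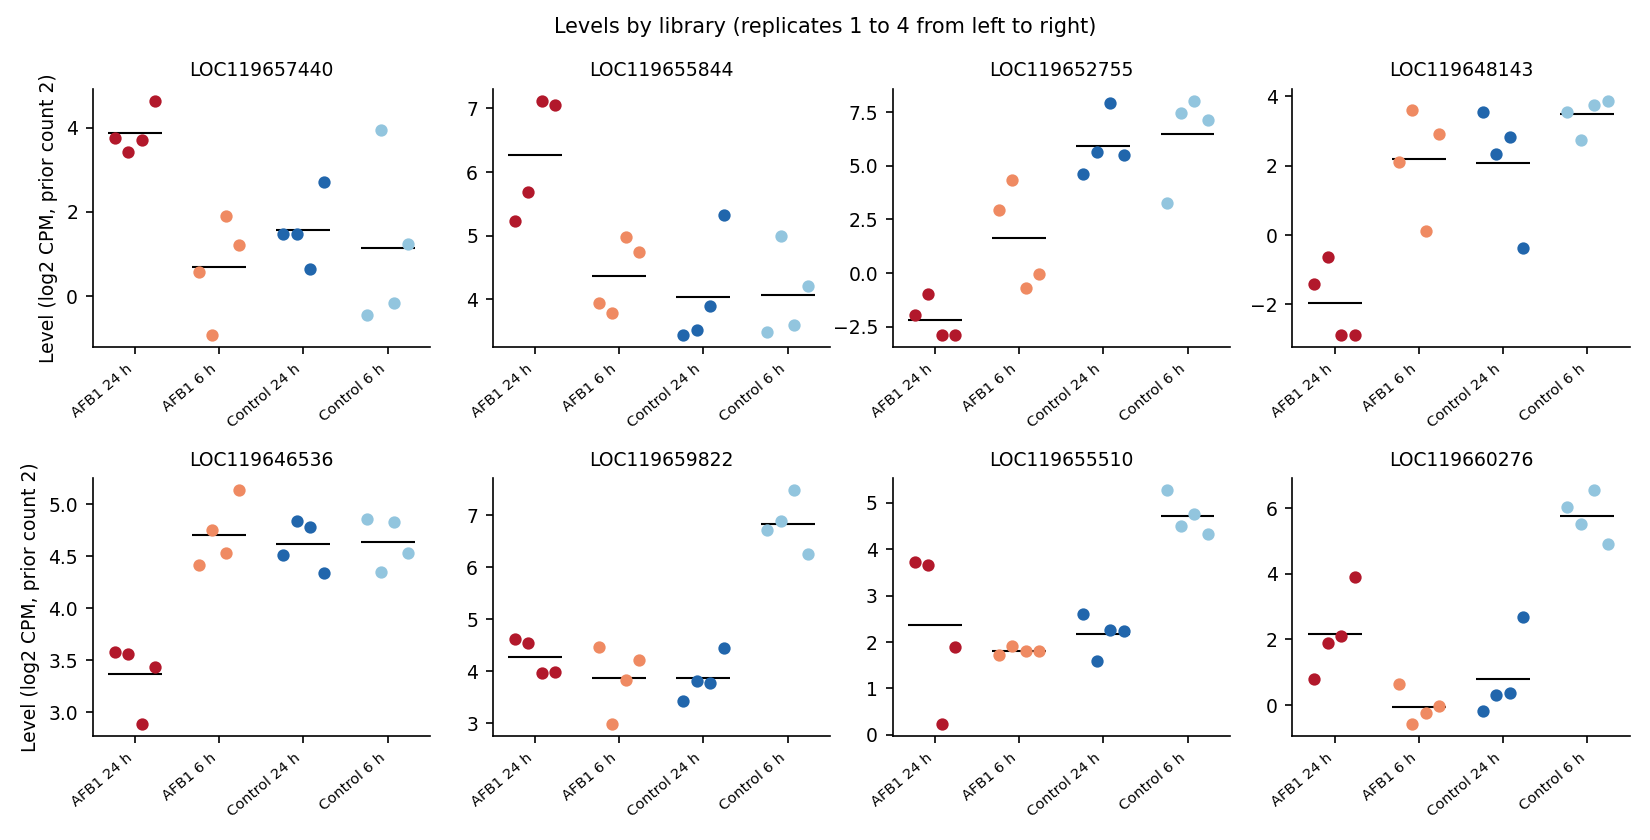
Levels of 8 genes described here and below, as log2 CPM with a prior count of 2 (vertical axes, each with its own range), with 1 point per library and a bar at the group mean in AFB1 24 h, AFB1 6 h, control 24 h and control 6 h larvae. In the upper panels LOC119657440 and LOC119655844 are higher and LOC119652755 and LOC119648143 lower in every AFB1 24 h library than in any AFB1 6 h library. For the 2 lower genes the nearest libraries of the 2 times hold only 2 to 4 counts each. In the lower panels LOC119646536 is low in AFB1 24 h larvae while the other 3 genes are high in control 6 h larvae.

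The lowest p of all belonged to LOC119646536, singled out after values were seen. It had 11.8, 11.6, 7.24 and 10.7 CPM at 24 h, against 21.2, 26.9, 22.9 and 35.0 CPM at 6 h on AFB1 feed. The change was smaller than in the genes above but the libraries of each time lay close together, and it fell by 1.34 ± 0.22 log2 (SE; adjusted p = 0.0465 in edgeR). Control larvae had 20.0 to 28.5 CPM at 24 h and 20.3 to 28.8 CPM at 6 h, and AFB1 72 h larvae had 23.9 to 31.8 CPM. The 4 AFB1 24 h libraries were thus below the other 16 of these 20. The change differed between feeds by -1.32 ± 0.31 (adjusted p = 0.0445 in edgeR, and 0.0767 with the replicate block). Under 23 alternatives its fall was called in 9.

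Among classes of RNA, 3 of 159 tested long non-coding RNAs (lncRNAs) and 1 of 5 tested small nucleolar RNAs were called, beside the 4.04% of all genes. These classes, and the identifiers given for them, were chosen after values were seen. The median log2 fold change of the lncRNAs was 0.53, and 37 were higher and 13 lower at an unadjusted p under 0.05, while over all genes 1096 were higher and 1956 lower. Without AFB1 24 h replicates 3 and 4 the lncRNA median was 0.16. In that setting 14 of 197 tested lncRNAs had an unadjusted p under 0.05 in edgeR, beside 1330 of 10449 genes. With library totals left unscaled the lncRNA median was -0.51. The lncRNA LOC119654290 had 14.5, 20.6, 59.5 and 56.5 CPM at 24 h, against 6.56, 6.63, 16.9 and 12.2 CPM at 6 h, and rose by 1.84 ± 0.50 log2 (SE; adjusted p = 0.0492 in edgeR) with overlapping libraries at 14.5 and 16.9 CPM. LOC119648637 had 2.19, 1.26, 1.03 and 0.51 CPM at 24 h, against 9.61, 12.2, 1.67 and 12.5 CPM at 6 h, and fell by 2.70 ± 0.57 (adjusted p = 0.0492 in edgeR), again with 6 h replicate 3 inside the range of 24 h. LOC119648351 had 0 counts in all AFB1 24 h libraries, against 24, 42, 0 and 6 counts in AFB1 6 h libraries, which is at least 6.47-fold lower when 3 counts are taken as the floor of the group.

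Small nucleolar RNAs guide chemical changes of ribosomal RNA. The called gene, LOC119650518, had 7.31, 8.22, 16.0 and 7.64 CPM at 24 h, against 2.91, 1.63, 3.58 and 2.26 CPM at 6 h on AFB1 feed. The times did not overlap, and it rose by 1.92 ± 0.51 log2 (SE; adjusted p = 0.0492 in edgeR). On control feed it had 1.84, 1.56, 2.79 and 9.15 CPM at 24 h, against 1.06, 1.07, 1.03 and 2.40 CPM at 6 h, and the change did not differ between feeds beyond its error (0.52 ± 0.71, adjusted p = 0.678 in edgeR). None of the 4 tested ribosomal RNA genes was called, nor did any have an unadjusted p under 0.05. The labels do not say how RNA was selected for the libraries.

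Some called genes were neighbours in the annotated gene order. In all, 36 of the 411 (8.76%) stood in 17 runs of adjacent tested genes called in the same direction, 7 runs higher and 10 lower, of which 15 held 2 genes and 2 held 3. Over all tested genes 1.27% were called higher and 2.77% lower, so some runs arise without any link between neighbours. The number expected in that way was not worked out, and distance between genes was not used, so the runs are a description. Adjacent genes may be near-identical copies between which counting could have divided reads, which was not tested. In 1 run of 3, LOC119656940 had 8.52, 6.07, 1.55 and 3.06 CPM at 24 h, against 48.8, 163, 1.43 and 55.3 CPM at 6 h. LOC119656943 had 1.34, 1.77, 1.03 and 1.53 CPM at 24 h, against 17.0, 68.3, 0 and 25.8 CPM at 6 h, and LOC119657597 had 7.43, 5.18, 0.52 and 6.11 CPM, against 111, 424, 3.82 and 199 CPM. The 3 fell by 3.74 ± 0.96, 4.26 ± 1.09 and 5.22 ± 1.20 log2 (SE; adjusted p = 0.0492 for each in edgeR), and AFB1 6 h replicate 3 was as low as the 24 h libraries in all 3. So was control 24 h replicate 4, with 5.36, 0.79 and 2.05 CPM, while the other control 24 h libraries had 97.4 to 232, 23.3 to 60.8 and 127 to 462 CPM. In AFB1 72 h larvae the genes had 30.2 to 189, 7.12 to 48.7 and 35.8 to 330 CPM, above every AFB1 24 h library.

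In the other run of 3, LOC119659346 had 2.44, 1.64, 0.52 and 0.51 CPM at 24 h, against 6.16, 20.7, 2.86 and 10.6 CPM at 6 h, and fell by 2.75 ± 0.63 log2. LOC119659545 had 1.34, 0.89, 0 and 0.51 CPM at 24 h, against 2.54, 4.47, 2.15 and 4.61 CPM at 6 h, and fell by 2.02 ± 0.50. LOC119659171 had 7.06, 7.59, 2.07 and 4.58 CPM at 24 h, against 17.7, 30.1, 9.54 and 17.5 CPM at 6 h, and fell by 1.75 ± 0.46 (SE; adjusted p = 0.0492 for each of the 3 in edgeR). None of the 3 overlapped between times. The change differed between feeds by -2.59 ± 0.64 for LOC119659171 (adjusted p = 0.0482 in edgeR, and 0.0767 with the replicate block) and by -2.50 ± 0.82 for LOC119659346 (adjusted p = 0.0861 in edgeR). For LOC119659171, control larvae had 33.8, 29.9, 31.9 and 4.57 CPM at 24 h, against 11.9, 12.7, 12.7 and 19.0 CPM at 6 h.

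To see which part of the day's movement also occurs without the toxin, the same contrast was taken in control larvae, which share no library with the AFB1 contrast. There 509 genes were called in edgeR (5.01%), 151 higher (1.49%) and 358 lower (3.52%) at 24 h. Both contrasts called 8 genes. These were 1.95% of the AFB1 calls, beside 5.01% of all genes called on control feed. They were 1.57% of the control calls, beside 4.04% of all genes called on AFB1 feed. A short shared list does not say that the other changes differ between feeds. The test of the difference in edgeR called 16 of the 129 higher and 17 of the 282 lower genes, beside 1.29% of all genes. It uses the same AFB1 libraries on which these genes were picked, so a larger share among them is partly set by the selection. On control feed 52 of the 129 also had a positive change and 190 of the 282 a negative one, beside a median of 0.0057 log2 there over all genes tested. How many of all genes had either sign was not counted, so these 2 counts are a description. The 129 genes that rose on AFB1 feed had a median of -0.12 log2 on control feed, and the 282 that fell had a median of -0.27.

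The 8 shared genes, named after their values were seen, fall into 3 patterns. LOC119657935 rose on both feeds, with 568, 752, 1515 and 821 CPM at 24 h, against 154, 111, 462 and 253 CPM at 6 h on AFB1 feed, a rise of 1.90 log2 there and 2.01 on control feed. LOC119659545, LOC119652524, LOC119654495 and LOC119656833 fell on both, by 2.02, 1.98, 1.78 and 2.32 log2 on AFB1 feed and by 1.66, 1.49, 1.71 and 1.85 on control feed. LOC119657798, LOC119649993 and LOC119650468 rose on AFB1 feed and fell on control feed. The clearest of these in counts was LOC119650468, with 42.0, 48.2, 58.5 and 57.5 CPM at AFB1 24 h and 31.7, 27.4, 31.0 and 28.1 CPM at AFB1 6 h, against 28.6, 31.4, 28.1 and 40.9 CPM at control 24 h and 47.5, 73.0, 51.6 and 49.2 CPM at control 6 h. The times did not overlap on either feed and moved opposite ways, and the difference was 1.58 ± 0.29 log2 (adjusted p = 0.0279 in edgeR, and 0.0679 with the replicate block). The other 2 had only 18 and 42 counts in the AFB1 24 h group and 4 and 5 counts in the AFB1 6 h group.

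The change over the day differed between feeds in 131 genes (1.29%) by the test of the difference itself in edgeR, 71 with a more positive (0.698%) and 60 with a more negative (0.59%) change on AFB1 feed. With LOC119646963 removed it differed in 129 (1.27%), 70 positive (0.688%) and 59 negative (0.58%). Of the 71, 16 rose on AFB1 feed, 45 fell on control feed and 13 did neither, where 3 genes count both as risen on AFB1 feed and as fallen on control feed. Of the 60, 17 fell on AFB1 feed, 25 rose on control feed and 18 did neither. Fewer of the 131 genes were thus called only on AFB1 feed (30) than only on control feed (67), but the AFB1 calls stood at the edge of the threshold. At an unadjusted p under 0.05 in edgeR, 88 of the 131 changed on AFB1 feed, beside 30% of all genes. The 131 were picked by a test that includes the AFB1 change, so this count and the medians that follow are partly set by the selection. The median log2 change of the 71 was 1.15 on AFB1 feed and -1.70 on control feed, and that of the 60 was -1.49 and 1.53. With the replicate block 5 genes were called, and without AFB1 24 h replicates 3 and 4 there were 3.

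For the 45 genes that fell on control feed, the levels in each group are given. Their median log2 CPM was 2.16 at AFB1 24 h and 0.78 at AFB1 6 h, against 1.04 at control 24 h and 5.31 at control 6 h. In 43 of the 45, the AFB1 6 h mean was nearer to control 24 h than to control 6 h. The genes were picked on the same libraries, by a fall on control feed and a more positive change on AFB1 feed. Both favour a high control 6 h level, and the second a low AFB1 6 h level, so this count is largely set by the selection. The share among all 358 genes that fell on control feed was not taken. These levels are a description. Of the 25 genes that rose on control feed, whose medians were 3.12 at AFB1 24 h and 3.81 at AFB1 6 h, against 4.40 at control 24 h and 2.98 at control 6 h, 18 had an AFB1 6 h mean nearer to control 24 h. The selection bears on this count in the same way.

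The 3 genes still called in the difference without AFB1 24 h replicates 3 and 4 were of this kind, and are named for that reason. LOC119659822 had 24.4, 23.1, 15.5 and 15.8 CPM at AFB1 24 h and 22.0, 7.76, 14.1 and 18.3 CPM at AFB1 6 h, against 10.7, 14.0, 13.6 and 21.8 CPM at control 24 h and 105, 119, 179 and 76.6 CPM at control 6 h. Only control 6 h larvae stood apart among these 16 libraries. The change over the day was 0.35 ± 0.34 log2 on AFB1 feed (adjusted p = 0.513 in edgeR), and its difference from control feed was 3.35 ± 0.49 (adjusted p = 0.00339 in edgeR). LOC119660276 had 1.58, 3.54, 4.14 and 14.8 CPM at AFB1 24 h and 1.44, 0.53, 0.72 and 0.84 CPM at AFB1 6 h, against 0.75, 1.09, 1.15 and 6.31 CPM at control 24 h and 65.0, 45.6, 93.8 and 29.6 CPM at control 6 h, and differed by 7.38 ± 1.10 (adjusted p = 0.00339 in edgeR). LOC119655510 had 13.2, 12.5, 1.03 and 3.56 CPM at AFB1 24 h and 3.18, 3.62, 3.34 and 3.35 CPM at AFB1 6 h, against 2.89 to 5.97 CPM at control 24 h and 20.1 to 38.7 CPM at control 6 h, and differed by 3.84 ± 0.71 (adjusted p = 0.0279 in edgeR, and 0.0679 with the replicate block). AFB1 72 h larvae had 63.1 to 140 CPM of LOC119659822, above every AFB1 24 h library.

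**Figure D5:**
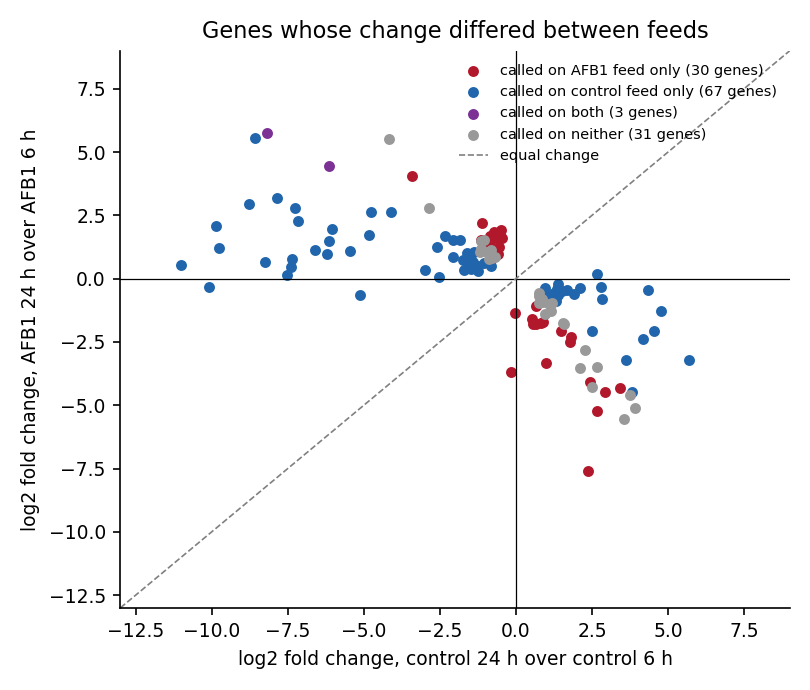
Log2 fold change of 24 h over 6 h on AFB1 feed (vertical axis) against that on control feed (horizontal axis) for the 131 genes whose change differed between feeds, coloured by the feed on which the gene was called, with a dashed line where both changes are equal. Of the 131, 30 were called only on AFB1 feed, 67 only on control feed, 3 on both and 31 on neither.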

How the data were processed

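The deposited values are raw counts of reads per gene for each library. The submitters' processing notes name STAR. Which tool counted the reads, with which strand setting and genome build, is not given in the sources used here, so reads of overlapping, antisense or near-identical genes may have been divided between them. The authors used DESeq2, per the series' design text. Of 15197 lines, 1 was empty and 9 named no gene (0.0206% to 0.0431% of a library's counts); these were left out. All 15187 named lines matched the RefSeq table of assembly GCF_905115235.1, which gave gene class and order only.

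Counts were tested with edgeR 4.0.16 in R 4.3.3: filterByExpr over the 6 groups, TMM, 1 coefficient per diet and time over all 24 libraries, robust quasi-likelihood tests (18 residual degrees of freedom, a common coefficient of biological variation of 0.513), two-sided, Benjamini-Hochberg adjustment, called under 0.05. The standard error (SE) of a change is its size over the root of the F statistic. DESeq2 1.42.0 and limma 3.58.1 were alternatives. The tests were checked on simulated counts. Shares were compared by exact permutation tests. No molecular identifiers are mentioned, so floors cover counting error only.

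The members, the gene classes and the rule for named genes were chosen with earlier results of these data known. That rule takes, among called genes with a mean log2 CPM of at least 1 and no overlap between times, the 2 largest changes per direction where product names are lacking, the mitochondrial genes, LOC119646963 and neighbour runs of 3; other identifiers were added after seeing values. Of 27 gene lists by product name, none could be formed. Same-numbered AFB1 24 h and 6 h libraries deviated together (correlations 0.104 to 0.444 in 4 pairs, each 24 h library correlating best with its own number), so a fit with replicate number as a block was also made; the labels number the libraries but do not say what a number shares.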

Additional observations from a re-analysis of the deposited data

Results flagged for a closer look

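In 82 groups of 4 values the gap of the farthest library to its nearest neighbour was compared with the range of the group, and 4 exceeded Dixon's critical value of 0.829; chance gives about 1 in 20. LOC119650518 reached 16.0 CPM in AFB1 24 h replicate 3, above 7.31 to 8.22 CPM in the other AFB1 24 h libraries. In AFB1 24 h replicate 4, LOC119657798 reached 6.11 CPM and LOC119649993 reached 15.8 CPM, from 12 and 31 counts. *CYTB* reached 3845 CPM in AFB1 6 h replicate 3, above 132 to 583 CPM in the other AFB1 6 h libraries.

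The change from 6 to 24 h differed between feeds in 131 genes by the test of the difference. Of the genes named, LOC119659171 (-2.59) and LOC119646536 (-1.32) had the more negative log2 change on AFB1 feed. LOC119650468 (1.58), LOC119659822 (3.35), LOC119655510 (3.84), LOC119660276 (7.38), LOC119657798 (10.60) and LOC119649993 (13.95) had the more positive one, the last 2 from fewer than 50 counts per AFB1 group.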

How the results depend on the processing

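The count of genes called between AFB1 24 h and 6 h larvae, 411 with all libraries, was 0 in 14 of 24 alternatives, with a lowest adjusted p between 0.0526 (at equal depth with LOC119646963 removed) and 0.291 (without AFB1 24 h replicates 3 and 4). It was 0 (3052 genes at an unadjusted p under 0.05 in the edgeR fit with all libraries) with limma voom, without a filter on low counts, with only the 8 AFB1 libraries, with the replicate block, without AFB1 24 h replicates 3 and 4 (with or without LOC119646963, and also without AFB1 6 h replicate 3), with the control 72 h libraries summed and, with LOC119646963 removed as well, at equal depth. It was 3351 with library totals unscaled (11 higher, 3340 lower, with a median of -1.21 over all genes), 1764 with DESeq2, 1534 without control 24 h replicate 4, 1874 at an adjusted p under 0.1, and 0 to 2905 with 1 AFB1 library left out. The direction of all 411 held with LOC119646963 removed, with DESeq2, limma voom and the block. It held for 410 without AFB1 24 h replicates 3 and 4, and for 364 with library totals, under which 47 turned. The 411 were picked on the same libraries, so a kept direction is a description and no separate support.

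With LOC119646963 removed (347 genes) the same settings gave 0 calls, as did library totals, while DESeq2 gave 1766, leaving out control 24 h replicate 4 gave 1472, an adjusted p under 0.1 gave 1810, and leaving out 1 library gave 0 to 2890. Among the 12 mitochondrial genes the calls were 1 with library totals (lower) and, all higher, 3 with DESeq2, 3 without control 24 h replicate 4, 2 at an adjusted p under 0.1 and 0 to 5 with 1 library left out. Among lncRNAs they were 19 (1 higher, 18 lower), 32 (24 higher, 8 lower), 26 (20 higher, 6 lower), 32 (24 higher, 8 lower) and 0 to 53 in the same order, and 0 in the settings that gave no call over all genes.

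The difference between feeds (131 genes) gave 17 calls with library totals, 1169 with DESeq2, 62 with limma voom, 17 without a filter, 5 with the replicate block, 3 without AFB1 24 h replicates 3 and 4 (3 with LOC119646963 removed too), 2 without AFB1 6 h replicate 3 as well, 4 with the control 72 h libraries summed, 1121 without control 24 h replicate 4, 962 at an adjusted p under 0.1 and 4 to 1296 with 1 library left out. The control contrast (509 genes) gave 247 with library totals, 920 with DESeq2, 245 with only its 8 libraries, 240 with the control 72 h libraries summed, 1118 without those 3 AFB1 libraries, 847 at an adjusted p under 0.1, 381 with the replicate block and 467 to 609 with 1 library left out.

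The LOC119646963 share differed by 29.2 to 47.1 points with 1 library left out and the mitochondrial share outside it by 3.77 to 6.75 points; both passed an exact permutation test without AFB1 24 h replicate 1 (p = 0.0286, the smallest possible there). Taken as 4 pairs by replicate number, the mean differences of 37.5 and 5.07 points and of -354 genes detected each had an exact permutation p of 0.125, the smallest possible. Over all counts the mitochondrial share differed by -0.952 points. Genes detected at equal depth differed by -501 to -261, and passed only without AFB1 6 h replicate 3 (exact permutation p = 0.0286). With library totals the log2 changes were -0.44 for *ND1*, -0.74 for *ND4L*, -0.19 for *ND6*, -1.32 for *COX2*, -0.57 for *ATP8*, -0.018 for the mitochondrial median, -0.38 for LOC119650468 and -0.56 for LOC119659822. Without AFB1 24 h replicates 3 and 4, with LOC119646963 kept and then removed, they were 0.021 and 0.017 for *ND3*, -0.044 and -0.046 for *ND5* and -0.25 and -0.25 for *COX2*; without AFB1 6 h replicate 3 as well, 0.26 for *ND3* and -0.48 for *COX2*. *COX2* ran from -0.12 to 0.40 with 1 library left out. The causes were not tested. The settings without control 24 h replicate 4, without AFB1 6 h replicate 3 together with AFB1 24 h replicates 3 and 4, at an adjusted p under 0.1, and the tests by pairs and the left-out libraries for genes detected were added after seeing the data. AFB1 24 h replicates 3 and 4 had the fewest counts outside LOC119646963; the part of depth in the lower calls was not tested.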
